A study of Mus musculus with 4 samples.

Results

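The genes described here encode the glycosyltransferases and sulfotransferases that build mucin-type and related glycans. They were taken by symbol alone: every mm9 gene named Galnt, B3gnt, B3galt, B4galt, Gcnt, Fut, St3gal, St6gal, St6galnac, St8sia or Chst followed by a number. In the annotation 80 genes met this rule, and 79 of them held at least 1 exon block of their own in the deposited exon table, out of 20806 genes with such a block. The remaining gene, B3gnt4, has no value here, since its block is shared with Diablo and was given to that gene. B3gnt1 is the older symbol of the gene now called B4gat1.

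Reads came from total tissue of small intestine and colon of C57BL/6 mice aged 9 to 10 weeks, with no treatment. The study took the jejunum and the distal colon. Each tissue was sequenced once from polyadenylated RNA copied into full-length cDNA and then fragmented (cDNA fragmented), and once from RNA labelled as depleted of ribosomal RNA and fragmented before copying (RNA fragmented), which keeps the strand. The study describes both tissues as coming from the same animals, and the labels do not say which mice went into which library. With 1 library per tissue and protocol no spread between mice can be given, and every interval below covers counting error only, at 95%.

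Mucins are secreted and membrane proteins that carry dense O-linked sugar chains and form the mucus layer over the intestinal epithelium. A chain begins when a Galnt enzyme attaches N-acetylgalactosamine to serine or threonine. The core is then branched by Gcnt enzymes or extended by B3gnt, B3galt and B4galt enzymes, and it is capped with fucose, sialic acid or sulfate by the Fut, sialyltransferase and Chst families. Several members act on glycolipids, on N-linked chains or on proteoglycans instead, which is stated where a gene is described.

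The cDNA fragmented libraries held 22484041 (small intestine) and 24798934 (colon) uniquely placed reads and the RNA fragmented ones 2035386 and 3478387, so the latter are less precise for weakly expressed genes. All 6 markers of small intestinal enterocytes were at least 3-fold higher in small intestine and all 4 of colonocytes were at least 3-fold higher in colon under both protocols, as the labels require. The libraries also differed in other cells. Goblet cell markers summed to 16365 RPKM (reads per kilobase of exon, scaled to 1000000 uniquely placed reads) for small intestine against 38350 for colon when cDNA was fragmented, and to 4553 and 10624 when RNA was fragmented. Of 7 goblet markers measured, 3 were called higher in colon by the fit described below, namely Agr2, Clca3 and Spdef, and none was at 0. Without Agr2 and Clca3 the sums were 12927 and 22054 RPKM by cDNA fragmentation and 4005 and 4444 by RNA fragmentation. In the fit the log2 differences (colon over small intestine) of the uncalled markers Spink4, Zg16, Tff3 and Fcgbp were 0.94, 0.083, 0.042 and -0.21. The protocols disagreed for Fcgbp, with 57.7 RPKM for small intestine against 102 for colon when cDNA was fragmented. When RNA was fragmented it had 697 and 429. All 5 smooth muscle markers were called higher in colon (219 against 826 RPKM in sum, and 188 against 1762), as were both adipocyte markers tested (Adipoq and Fabp4) and 2 of 4 of enteric neurons. Called higher in small intestine were 1 of 2 Paneth cell markers (Lyz1), 3 of 4 of T cells and 1 of 5 of B and plasma cells (Igj). Beside these marker counts, the fit called 6.69% of all genes tested higher in colon and 6.46% higher in small intestine. Pancreatic acinar markers went in opposite directions: 6 measured genes summed to 0.701 RPKM in small intestine and 217 in colon by cDNA fragmentation, but to 1758 and 5.71 by RNA fragmentation, while Amy2a5 was at 0 throughout. The part of these cell types in the values below was not tested. In whole tissue, fewer cells of a type and less RNA per cell cannot be told apart.

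More of the enzyme genes were higher in colon than in small intestine. The study's rule for enhanced expression, set there on FPKM per transcript, asks for a 3-fold ratio after 1 is added to the divisor, and was applied here to RPKM per gene. By it, 10 of the 77 members present in the cDNA fragmented libraries were higher in colon (13.0%, against 3.2% of all 16470 genes present) and 2 were higher in small intestine (2.6%, against 2.73%). In the RNA fragmented libraries 18 of 71 present members were higher in colon (25.4%, against 6.61% of 15062 genes) and 2 in small intestine (2.82%, against 3.68%). The rule was met in colon under both protocols by 9 members, and in small intestine by 2, beside 2.27% and 2.06% of the 14827 genes present in both. Over the members present, log2 of the colon level over the small intestine level had a median of 0.77 by cDNA fragmentation and 1.31 by RNA fragmentation (0.1 RPKM added), beside 0.36 and 0.42 over all genes present. Scaling by the median of ratios in place of the read totals lowers a log2 ratio of RPKM by 0.40 and 0.34 where no RPKM is added, and lowers the members' medians to 0.46 and 0.99, so a ratio near the median of all genes says little.

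The only test over libraries that the design allows combined both protocols, with protocol as a block and 1 residual degree of freedom, so that its error comes from the disagreement of the tissue ratio between protocols and not from the spread between mice. The limma fit drew each gene's variance strongly toward the value shared by all genes (17.5 prior degrees of freedom). It was run over 13862 genes with Benjamini-Hochberg adjustment. Of 68 members tested, 20 were called higher in colon at an adjusted p under 0.05 (29.4%, against 6.69% of all genes tested) and 3 higher in small intestine (4.41%, against 6.46%). All 9 members that met the 3-fold rule in colon under both protocols were among the 20. The rule and the fit use the same counts, so this overlap is no separate evidence. Among the 20 was also St8sia5, which had 0 reads in both small intestine libraries. It passed the low-count filter of the fit through the colon libraries alone. Fut9, B3galt2 and Chst1 also needed a colon library to pass this filter, so the share called in colon is not free of it.

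**Figure D1:**
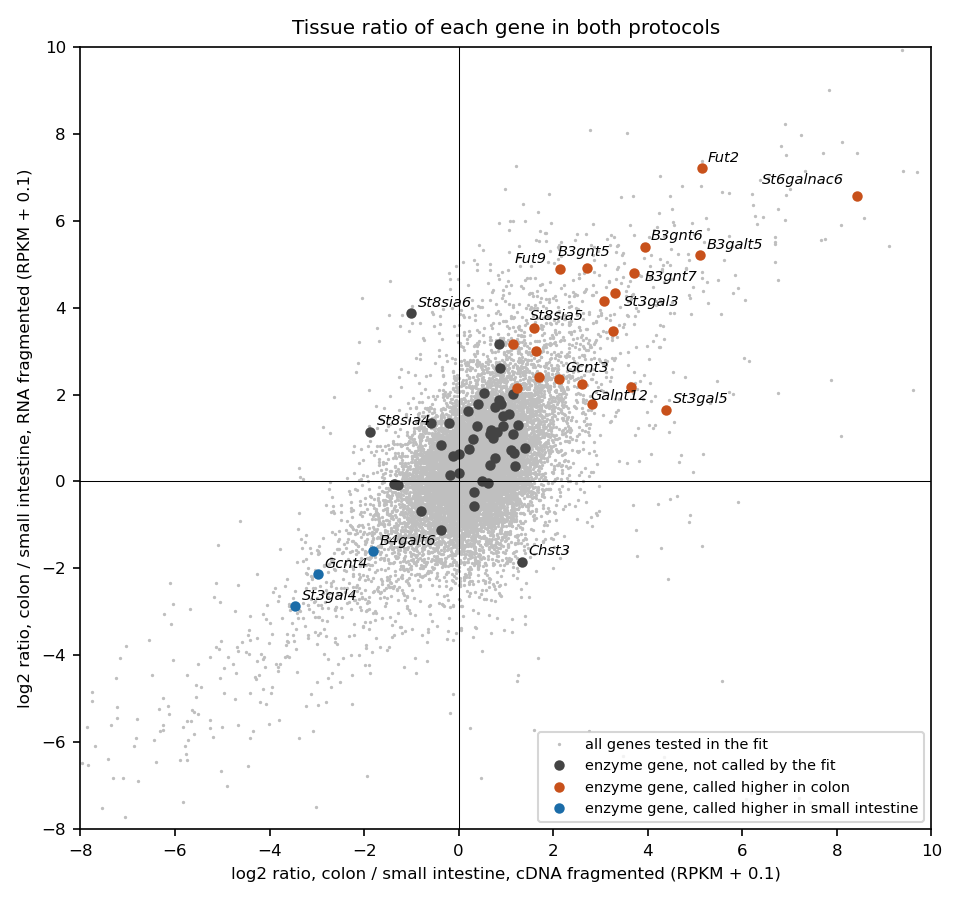
Each point is a gene, with its log2 ratio (colon over small intestine) in the cDNA fragmented libraries on the x axis and in the RNA fragmented libraries on the y axis (0.1 RPKM added). Grey points are the 13862 genes tested, of which 57 lie outside the axes, and large points are the 68 enzyme genes tested, orange for the 20 called higher in colon and blue for the 3 called higher in small intestine. Among the enzyme genes, Fut2 and St6galnac6 lie farthest toward colon in both protocols, and St3gal4 farthest toward small intestine.

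Summed per family, levels were higher in colon in both protocols for Galnt, Gcnt, B3gnt, B3galt, Fut, St6gal, St6galnac and Chst. The St6galnac sum was 10.6 RPKM in small intestine and 220 in colon by cDNA fragmentation, and 25.4 and 337 by RNA fragmentation. For B3gnt the sums were 29.4 and 134, and 99.8 and 623. B3galt genes summed to 5.71 and 59.6, and to 9.71 and 72.1. St3gal was the family that was higher in small intestine under both protocols, at 2283 against 271 and at 298 against 191. A single gene carried that sum, St3gal4, which in small intestine by cDNA fragmentation held 99.1% of it and 85.8% of the RPKM of all 79 members, and by RNA fragmentation 94.0% and 28.8%. Without St3gal4 the remaining members summed to 374 RPKM in small intestine and 1088 in colon by cDNA fragmentation.

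**Figure D2:**
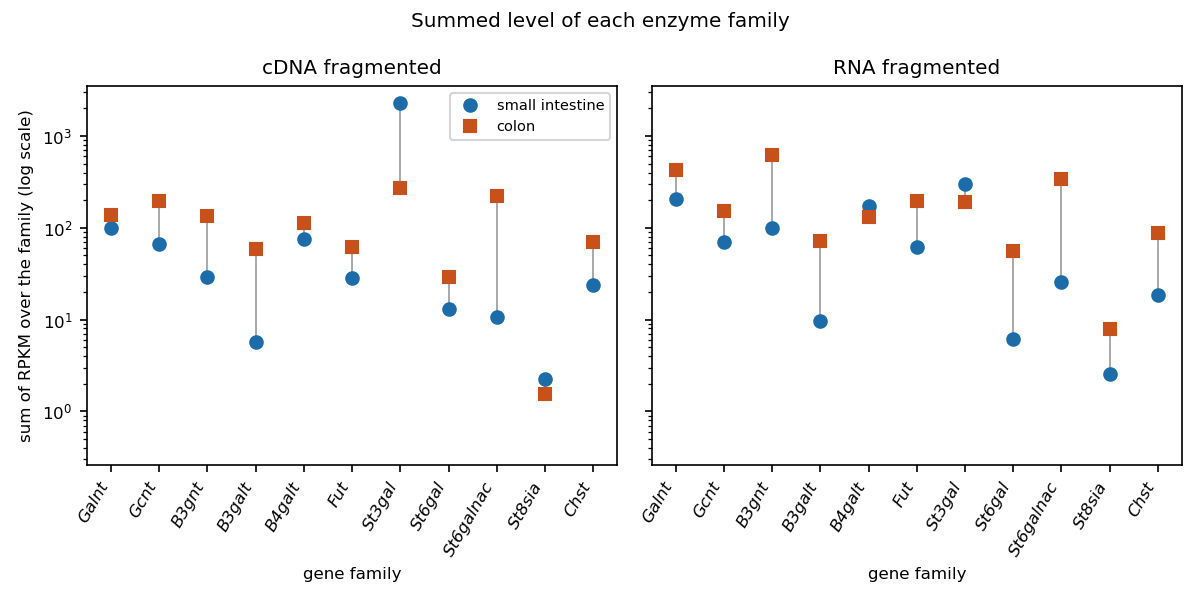
Sum of RPKM over each enzyme family (log scale) in small intestine (blue circles) and colon (orange squares), cDNA fragmented libraries at left and RNA fragmented at right, with 1 library per point. The St6galnac, B3gnt and B3galt sums lie well above in colon in both panels, and the St3gal sum lies above in small intestine.

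The gene with most reads per kilobase changed between tissues within several families. In the B3gnt family it was B3gnt3 in small intestine (35.8% and 68.4% of the family's RPKM) and B3gnt7 in colon (56.8% and 65.7%). In the Fut family it was Fut8 in small intestine and Fut2 in colon under both protocols, and in the St6galnac family St6galnac2 in small intestine and St6galnac6 in colon. Galnt1 led the Galnt family in small intestine and Galnt7 in colon. Chst4 led the sulfotransferases in all 4 libraries.

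**Figure D3:**
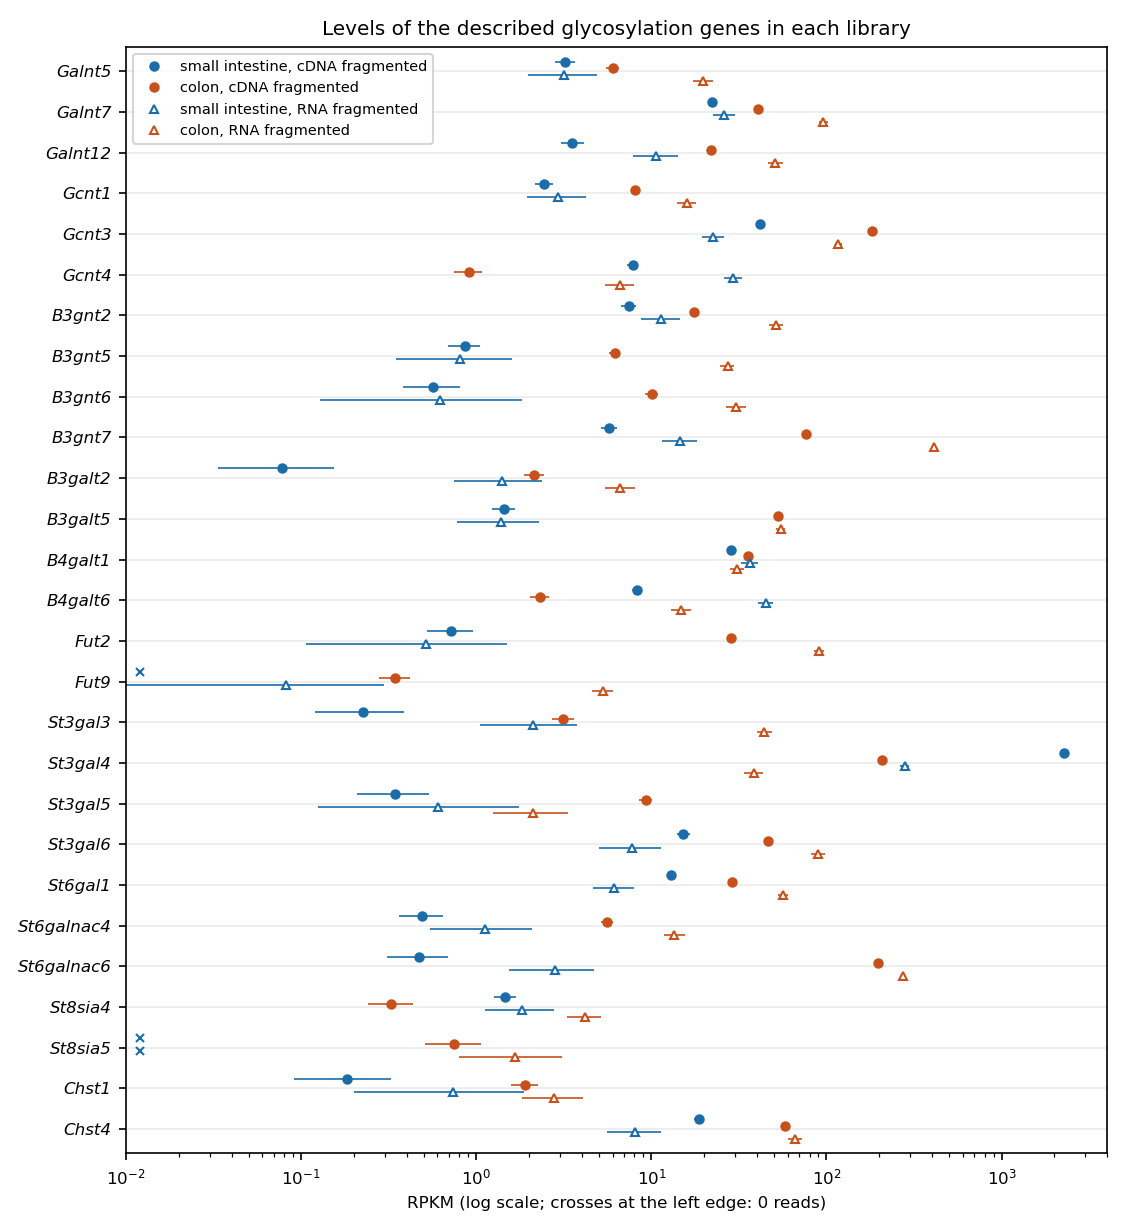
RPKM (log scale) of the 27 genes described with full values in the 4 libraries, blue for small intestine and orange for colon, filled circles for cDNA fragmented and open triangles for RNA fragmented. Lines are 95% Poisson counting intervals and crosses mark 0 reads. Both colon values of St6galnac6, Fut2, B3galt5, B3gnt7 and B3gnt6 lie above both small intestine values, and the reverse holds for St3gal4.

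For 4 genes with a large difference toward colon and an annotated start, the 200 bases before and 50 from the GENCODE M1 start on are shown, read from mm9 (NCBIM37). Each is the start whose first exon meets the most 5′ exon block that held reads in colon. Capitals mark the GC box letters GGGCGG on either strand.
St6galnac6 (chr2:32464333-32464582, plus strand): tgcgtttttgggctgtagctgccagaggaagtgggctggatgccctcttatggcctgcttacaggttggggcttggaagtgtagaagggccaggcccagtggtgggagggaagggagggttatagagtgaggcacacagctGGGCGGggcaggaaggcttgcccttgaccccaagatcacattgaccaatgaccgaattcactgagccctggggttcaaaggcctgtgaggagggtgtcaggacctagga
Fut2 (chr7:52921715-52921964, minus strand): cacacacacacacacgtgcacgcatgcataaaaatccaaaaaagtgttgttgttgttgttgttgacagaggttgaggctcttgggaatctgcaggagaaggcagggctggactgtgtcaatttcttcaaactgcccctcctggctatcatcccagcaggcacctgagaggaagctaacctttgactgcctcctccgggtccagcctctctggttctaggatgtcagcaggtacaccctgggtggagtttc
B3galt5 (chr16:96502205-96502454, plus strand): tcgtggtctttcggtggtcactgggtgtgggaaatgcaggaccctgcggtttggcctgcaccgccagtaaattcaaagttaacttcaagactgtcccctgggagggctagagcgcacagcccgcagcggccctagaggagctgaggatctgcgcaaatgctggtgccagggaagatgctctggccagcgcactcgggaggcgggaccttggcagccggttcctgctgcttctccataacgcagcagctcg
B3gnt7 (chr1:88199596-88199845, plus strand): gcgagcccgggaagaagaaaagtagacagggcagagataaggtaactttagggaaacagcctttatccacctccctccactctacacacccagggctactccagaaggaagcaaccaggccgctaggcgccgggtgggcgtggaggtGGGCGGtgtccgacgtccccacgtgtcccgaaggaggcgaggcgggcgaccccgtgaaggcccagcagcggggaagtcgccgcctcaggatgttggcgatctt
The exon blocks met by these first exons held 30, 20, 7 and 15 reads in the cDNA fragmented colon library, in the order shown. Reads were counted on deposited exon blocks only, so they do not set the start itself. The block of Fut2, at chr7:52921568-52921678, lies beyond its printed window, as does that of B3galt5. The study reports a depletion of transcript ends with this protocol, so a start further 5′ may be in use without reads. Of the 23 members called by the fit, 12 had such a start outside the chromosomes left out and could be searched. Fut9 met the same rule with a larger difference than 3 of the genes shown, but at a start inside the last exon of its longer transcripts, and is not shown. It is counted among the 12. The GC box was found in 6 of the 12, and in 42.2% of 22236 promoters of coding genes of the same length. Those promoters were taken at the outermost annotated start of each gene, and the members' windows at a start picked by reads. The shares are therefore not strictly comparable. TATAAA (in 11.2% of all promoters), the CDX-type letters TTTATNG (8.35%) and the HNF4-type letters CAAAGTCCA (0.391%) were found in 0 of the 12 on either strand. These matches describe letters in this window only.

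Of the 13 Galnt genes, which start the chains, 11 were tested and Galnt12 was the single one called, higher in colon, beside 6.69% of all genes tested in that direction. Galnt12 (chr4:47104825-47135914) stood at 3.53 RPKM in small intestine and 22.0 in colon by cDNA fragmentation, and at 10.6 and 51.0 by RNA fragmentation. Both colon values lie above both small intestine values, by 6.23-fold (5.32 to 7.34) and 4.79-fold (3.54 to 6.61), and the log2 difference in the fit was 2.22 ± 0.43 (SE; limma, adjusted p = 0.0012). Galnt7, the most abundant member by its mean over the 4 libraries, had 22.2 and 40.5 RPKM by cDNA fragmentation and 25.9 and 95.8 by RNA fragmentation. Its ratios were 1.82 (1.72 to 1.93) and 3.70 (3.16 to 4.34), and it was not called (limma, adjusted p = 0.077). Galnt5 met the 3-fold rule by RNA fragmentation alone, with 3.18 RPKM in small intestine against 19.8 in colon, against 3.22 and 6.01 by cDNA fragmentation (limma, adjusted p = 0.099). Galnt1 and Galnt6 had counting intervals on the small intestine side by cDNA fragmentation only, and neither was called. Over the family, intervals lay on the colon side under both protocols for 7 of 13 genes and on the small intestine side for 0, beside 26.3% and 10.2% of all genes present in both.

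The branching enzymes split between the tissues. Gcnt3 (chr9:69879303-69885895), which makes the core 2 and core 4 branches of mucins, stood at 41.6 RPKM in small intestine against 182 in colon by cDNA fragmentation, and 22.5 and 117 by RNA fragmentation. It was higher in colon by 4.39-fold (4.24 to 4.54) and 5.18-fold (4.47 to 6.04), with a log2 difference of 1.98 ± 0.37 (SE; limma, adjusted p = 0.00087). Gcnt1, another core 2 enzyme, was lower in level and also higher in colon, at 2.44 and 8.11 RPKM and at 2.92 and 15.9 (limma, adjusted p = 0.011). Gcnt4 (chr13:97694644-97720867), the remaining core 2 enzyme, went the other way. It stood at 7.80 RPKM in small intestine against 0.903 in colon by cDNA fragmentation, and 29.3 and 6.60 by RNA fragmentation. That is 8.64-fold (7.10 to 10.6) and 4.44-fold (3.58 to 5.54) higher in small intestine, with a log2 difference of -2.92 ± 0.43 (SE; limma, adjusted p = 7.4e-05). In the RNA fragmented small intestine library Gcnt4 was the first of the family by RPKM, with 42.0% of its sum, while Gcnt3 led in the other libraries. So 3 enzymes that make core 2 branches differed between the tissues, and they did not all differ in one direction.

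Gcnt2, which makes the I branch, was not called and was chosen for its exons after the values were seen. Its deposited model holds 3 long blocks of 1142, 1120 and 1168 bases before 2 blocks common to all, which are alternative first exons in the annotation. The most 5′ of them held 374 and 121 reads in small intestine and colon by cDNA fragmentation, and 27 and 79 by RNA fragmentation. The second held 11, 12, 3 and 4 reads and the third 18, 14, 17 and 7, in the same order. The most 5′ first exon thus held most reads of the 3 in every library.

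The B3gnt, B3galt and B4galt genes include those of core 3 synthesis and chain elongation, and also enzymes of other glycans. Of these 19 genes, 6 were called higher in colon and 1 in small intestine, beside 6.69% and 6.46% of all genes tested. B3gnt6 (chr7:105340925-105347985) is the core 3 synthase. It stood at 0.564 RPKM in small intestine against 10.0 in colon by cDNA fragmentation, from 30 and 589 reads, and 0.623 and 30.5 by RNA fragmentation, from 3 and 251 reads. Its ratios were 17.8 (12.3 to 26.6) and 49.0 (16.6 to 239), the second being loose because of the 3 reads, and the log2 difference was 4.31 ± 0.60 (SE; limma, adjusted p = 4.3e-05). B3gnt7, an enzyme that extends poly-N-acetyllactosamine and keratan sulfate chains, was at 5.75 and 76.2 RPKM and at 14.6 and 409. It was the most abundant of all 79 members in the RNA fragmented colon library, with 17.9% of their RPKM. The ratios were 13.3 (11.9 to 14.8) and 28.05 (22.4 to 35.6), with a log2 difference of 3.94 ± 0.41 (SE; limma, adjusted p = 1.2e-06). B3gnt5, which makes the core of lacto-series glycolipids, had 0.858 and 6.18 RPKM and 0.807 and 27.2. Colon was 7.21-fold (5.81 to 9.03) and 33.7-fold (17.0 to 78.6) higher (limma, adjusted p = 0.00023).

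B3gnt2, the main poly-N-acetyllactosamine enzyme, was called with the smallest difference of the called members, 1.36 ± 0.41 on the log2 scale (SE; limma, adjusted p = 0.034). It had 7.41 and 17.5 RPKM by cDNA fragmentation and 11.4 and 51.3 by RNA fragmentation. Of its 2636 bases, 2449 are shared with Commd1, so these values and the call are uncertain, and too few reads were left for the fit without the shared bases. Its call was lost when weakly expressed genes were kept in the fit (limma, adjusted p = 0.086). B3gnt3, the leading member in small intestine, had 10.5 and 18.02 RPKM and 68.2 and 98.8, and was not called.

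B3galt5 adds galactose to make type 1 chains, including those on core 3. It stood at 1.44 RPKM in small intestine against 53.0 in colon by cDNA fragmentation, and 1.38 and 54.7 by RNA fragmentation. The ratio was close under both protocols, 36.9 (31.7 to 43.2) and 39.5 (23.8 to 70.9), and the log2 difference was 4.97 ± 0.45 (SE; limma, adjusted p = 2.1e-07). Its first 2 exon blocks held 0 reads in all 4 libraries. The third, at chr16:96502639-96502685, belongs to the first exon at the start shown above but lies beyond the printed window. It held 7 reads in the cDNA fragmented colon library. B3galt2, another β1,3-galactosyltransferase, was weak, at 0.0777 and 2.14 RPKM and at 1.40 and 6.66. It was called higher in colon (limma, adjusted p = 0.0026), but of its 13 reads in the RNA fragmented small intestine library only 23.1% lay on its own strand. On the own strand alone its log2 ratio by RNA fragmentation moved from 2.18 to 3.83.

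Among the B4galt genes, which add β1,4-linked galactose, none met the 3-fold rule. B4galt6, a lactosylceramide synthase of glycolipids, stood at 8.28 RPKM in small intestine against 2.30 in colon by cDNA fragmentation, and 44.8 and 14.8 by RNA fragmentation. That is 3.60-fold (3.12 to 4.17) and 3.04-fold (2.58 to 3.59) before the penalty, and the fit called it higher in small intestine (log2 difference -2.00 ± 0.39, SE; limma, adjusted p = 0.0013). B4galt1, the leading member over the 4 libraries, was nearly even: 28.4 and 35.6 RPKM by cDNA fragmentation and 36.5 and 30.9 by RNA fragmentation, with a ratio of 1.25 (1.19 to 1.32) in the first and 0.847 (0.728 to 0.986) in the second. Its counting intervals lie on opposite sides of 1.

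Fucosyltransferases were led by different genes in each tissue. Fut2 adds α1,2-linked fucose and makes the H antigens of secretions. From 46 reads in small intestine and 2034 in colon it had 0.714 and 28.6 RPKM by cDNA fragmentation, and from 3 and 908 reads it had 0.514 and 91.1 by RNA fragmentation. The ratios were 40.1 (29.9 to 54.9) and 177 (60.4 to 860), with a log2 difference of 5.71 ± 0.60 (SE; limma, adjusted p = 1.2e-06). Its neighbour Fut1, which has the same activity and lies 27537 bases away on chr7, had 1.92 and 1.66 RPKM and 0.381 and 1.12, and was not called (limma, adjusted p = 0.93). Fut9, an α1,3-fucosyltransferase of Lewis x structures, was weak in colon and at the limit of detection in small intestine. By cDNA fragmentation it had 0 reads in small intestine and 102 in colon, so colon was at least 30.8-fold higher than a floor of 3 reads in small intestine, and the counting interval of the ratio reached down to 24.6. By RNA fragmentation it had 2 and 220 reads, a ratio of 64.4 (17.6 to 535), and the fit called it higher in colon (limma, adjusted p = 2.3e-05). Without a colon library Fut9 could not have passed the low-count filter of the fit. The same held for B3galt2 and Chst1, with 8 and 11 reads in the cDNA fragmented small intestine library. By the read totals, before scaling factors, it also held for St3gal3, with 13. Fut8, which fucosylates the core of N-linked chains, was nearly even, at 19.1 and 19.3 RPKM and at 33.5 and 38.3 (limma, adjusted p = 0.83). Fut4, another α1,3-fucosyltransferase, had counting intervals on the colon side under both protocols, with 4.83 and 8.56 RPKM and 24.1 and 53.6, and was not called (limma, adjusted p = 0.26).

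Among the enzyme genes tested, sialyltransferases held the largest differences of the fit in both directions, while by RNA fragmentation alone the ratio of Fut2 was larger. St6galnac6, which adds α2,6-linked sialic acid to N-acetylgalactosamine or N-acetylglucosamine in gangliosides and Lewis-type chains, had 26 reads in small intestine and 12042 in colon by cDNA fragmentation. These are 0.471 and 198 RPKM. By RNA fragmentation 14 and 2340 reads gave 2.80 and 274 RPKM. Both small intestine values were below both colon values by a wide margin, with ratios of 420 (286 to 643) and 97.8 (58.2 to 179) and a log2 difference of 7.62 ± 0.58 (SE; limma, adjusted p = 3.1e-08). That difference was the largest among the members tested. The first 2 of its 7 exon blocks held 0 reads in all 4 libraries, and among the deposited blocks reads began at the third, which belongs to the first exon at the start shown above. St6galnac4, which makes disialyl structures on core 1, is its neighbour, ending 6486 bases before it on the same strand of chr2. It had 0.490 and 5.59 RPKM and 1.13 and 13.5, and was higher in colon by 11.4-fold (8.50 to 15.6) and 12.0-fold (6.39 to 25.4; limma, adjusted p = 0.0002). Beyond the deposited blocks of St6galnac6, GENCODE M1 also gives it transcripts that begin inside the last exon of St6galnac4, with 128 bases in common. Without these bases the log2 ratio of St6galnac4 moved from 3.27 to 2.74 by cDNA fragmentation and from 3.47 to 2.48 by RNA fragmentation, and it was still called (limma, adjusted p = 0.0025). St6galnac2, the leading member of the family in small intestine, had 8.12 and 15.7 RPKM and 19.3 and 47.2, and was not called (limma, adjusted p = 0.20).

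St3gal4 adds α2,3-linked sialic acid to galactose of N-acetyllactosamine chains. It was the most abundant member in small intestine, with 104794 reads there and 10532 in colon by cDNA fragmentation, or 2264 and 206 RPKM. By RNA fragmentation it had 1172 and 275 reads, or 280 and 38.4 RPKM. Small intestine was 11.0-fold (10.8 to 11.2) and 7.28-fold (6.38 to 8.34) higher, with a log2 difference of -3.45 ± 0.37 (SE; limma, adjusted p = 1.7e-06). When each start point counted once, the log2 ratio by cDNA fragmentation shrank from -3.46 to -0.32, the reads of small intestine holding 3030 start points and those of colon 2549 on the 2059 bases and 2 strands of the gene. The level within small intestine differed between the protocols too, and this was not tested.

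Nearly all St3gal4 reads fell downstream of its annotated first exon. The study reports a depletion of transcript ends with the cDNA protocol, and its part in these counts was not tested. The most 5′ of 11 exon blocks, at chr9:34924283-34924425, held 3, 3, 1 and 4 reads in small intestine and colon by cDNA fragmentation and small intestine and colon by RNA fragmentation. The second block, at chr9:34863159-34863234, held 2134, 223, 35 and 20 reads in the same order, although it is the shorter, at 76 bases against 143. In GENCODE M1 this block is an internal exon. It is shown on the minus strand of mm9 with the 60 bases before it, and capitals mark the last 2 bases before the block, AG, the letters of a splice acceptor.
St3gal4 exon block 2 (chr9:34863159-34863294, minus strand): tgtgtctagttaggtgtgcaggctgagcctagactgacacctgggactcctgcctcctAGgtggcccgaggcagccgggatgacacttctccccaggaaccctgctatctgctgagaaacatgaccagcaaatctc
Reads across junctions were not counted, so what precedes this block in the transcripts was not determined.

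**Figure D4:**
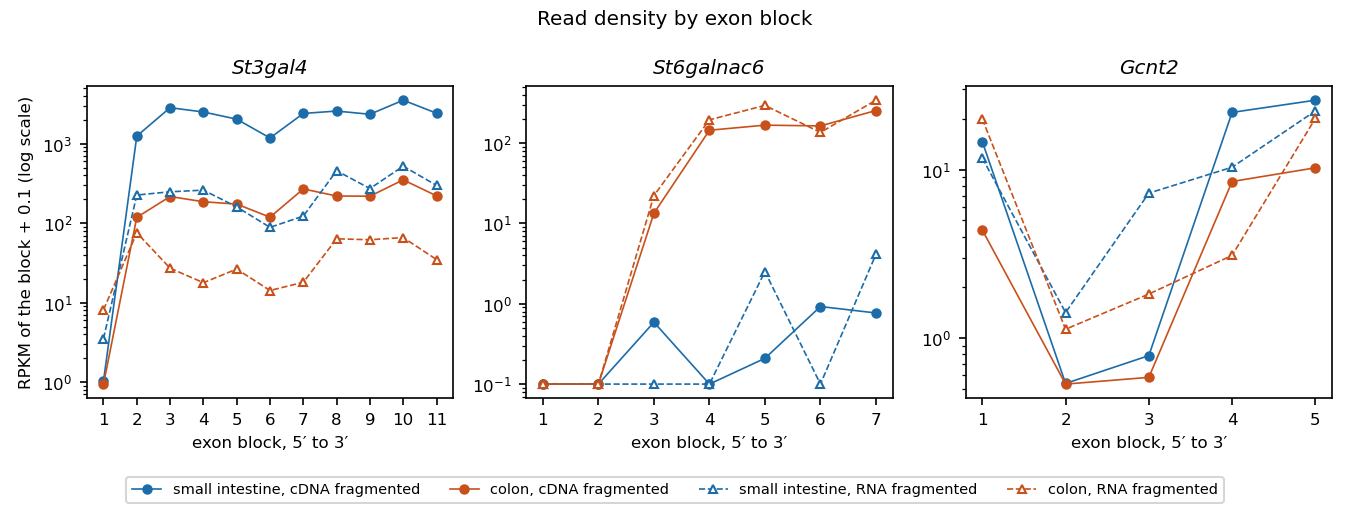
RPKM of each exon block plus 0.1 (log scale) against the number of the block from 5′ to 3′ for St3gal4, St6galnac6 and Gcnt2, colored by tissue, with filled circles for cDNA fragmented and open triangles for RNA fragmented libraries. Block 1 of St3gal4 and blocks 1 and 2 of St6galnac6 hold few or no reads in any library, and block 1 of Gcnt2 lies above blocks 2 and 3 in each library.

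The other St3gal genes leaned to colon. St3gal3, which acts on type 1 and type 2 chains, had 0.225 and 3.13 RPKM by cDNA fragmentation and 2.10 and 44.2 by RNA fragmentation, with ratios of 13.9 (7.97 to 26.7) and 21.1 (11.6 to 42.5; limma, adjusted p = 0.00015). St3gal6, of similar substrates, had 15.2 and 46.1 RPKM and 7.72 and 89.8 (limma, adjusted p = 0.0052). St3gal5, which makes the ganglioside GM3, had 0.345 and 9.27 RPKM, a ratio of 26.9 (17.0 to 45.0), by cDNA fragmentation. In the RNA fragmented libraries it had 3 and 18 reads, and the ratio there was 3.51 (1.02 to 18.6); it was called higher in colon (limma, adjusted p = 0.0009). St6gal1, which caps N-linked chains with α2,6-linked sialic acid, had 12.9 and 28.8 RPKM and 6.14 and 56.2, and was called higher in colon (limma, adjusted p = 0.014), a call that was lost when weakly expressed genes were kept (limma, adjusted p = 0.076). Of the 6 St3gal genes tested, 3 were called higher in colon and 1 in small intestine, beside 6.69% and 6.46% of all genes tested.

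The St8sia genes, which make di- and polysialic acid, were weak, with family sums between 1.55 and 7.92 RPKM. St8sia5, a ganglioside enzyme, had 0 reads in both small intestine libraries and 32 and 10 in colon. Colon was at least 9.67-fold higher by cDNA fragmentation and at least 1.95-fold by RNA fragmentation against a floor of 3 reads, and the counting intervals reached down to 7.42 and 1.31. The fit called it higher in colon (limma, adjusted p = 0.0021). It passed the low-count filter of the fit through the colon libraries alone, so a call toward small intestine was not possible. St8sia4, a polysialyltransferase and the leading member by its mean over the 4 libraries, had 1.46 and 0.327 RPKM by cDNA fragmentation but 1.82 and 4.15 by RNA fragmentation, with intervals on opposite sides of 1 and no call (limma, adjusted p = 0.34). St8sia5 and St8sia4 are also known from neurons and leukocytes: of the enteric neuron markers 2 of 4 were called higher in colon (3.19 and 10.9 RPKM in sum, 3.85 and 25.8), and of the T cell markers 3 of 4 were called higher in small intestine (60.7 and 7.62, 15.4 and 6.77). Of all genes tested, 6.69% were called higher in colon and 6.46% in small intestine. None of the neuron and T cell marker genes was at 0 in all libraries, and their part in the St8sia values was not tested.

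Of 14 sulfotransferases 9 were tested, and 2 were called higher in colon, beside 6.69% of all genes tested. Chst4 (chr8:112552975-112563234), which sulfates N-acetylglucosamine at carbon 6, stood at 18.6 RPKM in small intestine against 58.2 in colon by cDNA fragmentation, and 8.11 and 66.1 by RNA fragmentation. Colon was 3.13-fold (2.89 to 3.38) and 8.16-fold (5.73 to 12.0) higher, with a log2 difference of 1.88 ± 0.43 (SE; limma, adjusted p = 0.0053). Chst1, which sulfates galactose, had 0.182 and 1.89 RPKM and 0.733 and 2.79, from 4 to 126 reads (limma, adjusted p = 0.021), and its call was lost under 3 of the other settings tried. Chst5, the N-acetylglucosamine sulfotransferase named for the intestine, had 0 reads in both small intestine libraries and 2 and 3 in colon, at or under the floor of 3 reads, so no ratio is given. Among the genes of chondroitin and dermatan sulfation, Chst3, Chst11, Chst12, Chst14 and Chst15 were not called, and Chst7 and Chst13 were too weak to be tested. Chst3 had intervals on opposite sides of 1, with 0.335 and 1.003 RPKM by cDNA fragmentation and 1.61 and 0.376 by RNA fragmentation.

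The 52 members not given in full spanned log2 ratios from -1.37 to 1.40 with a median of 0.52 by cDNA fragmentation (50 present), and from -1.84 to 3.87 with a median of 0.91 by RNA fragmentation (44 present). Counting intervals lay on the colon side for 24 and on the small intestine side for 7 of them by cDNA fragmentation, and for 20 and 2 by RNA fragmentation. Over all present members these were 47 and 11 of 77 (61.0% and 14.3%, against 48.2% and 21.9% of all genes), and 43 and 6 of 71 (60.6% and 8.45%, against 36.1% and 18.1%). Over all 79 members, intervals lay on the colon side under both protocols for 37, on the small intestine side for 4 and on opposite sides for 4. In all genes these were 3893, 1510 and 1374, the first 2 being 26.3% and 10.2% of the genes present in both. Of the 79 genes, 16 stayed under 1 RPKM in all 4 libraries and 35 were over 1 RPKM in all 4, and St6gal2 had a single read in all.

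Genes that supply the sugars were measured beside the enzymes. Of 18 genes that make activated sugars or sulfate or carry them into the Golgi, 6 were called higher in colon and 0 in small intestine (6.69% and 6.46% of all genes tested). They had a median log2 ratio of 1.09 and 1.61 by the 2 protocols, beside 0.36 and 0.42 over all genes. Gne, the first enzyme of sialic acid synthesis, had 4.02 and 78.4 RPKM in small intestine and colon by cDNA fragmentation and 11.0 and 199 by RNA fragmentation, with a log2 difference of 3.97 in the fit. Nans, the sialic acid synthase, had 14.97 and 61.5 RPKM and 25.5 and 287, and Slc35a1, the carrier of activated sialic acid, had 15.2 and 133 and 14.7 and 200. Thus 3 genes of the sialic acid supply were called higher in colon, whereas Nanp and Cmas of the same supply were not. The other calls were Slc35a2 (galactose carrier), Slc35c1 (fucose carrier) and Uap1, an enzyme of activated N-acetylglucosamine. Papss2, which makes activated sulfate, had 122 and 238 RPKM by cDNA fragmentation and 439 and 115 by RNA fragmentation, on opposite sides of 1.

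**Figure D5:**
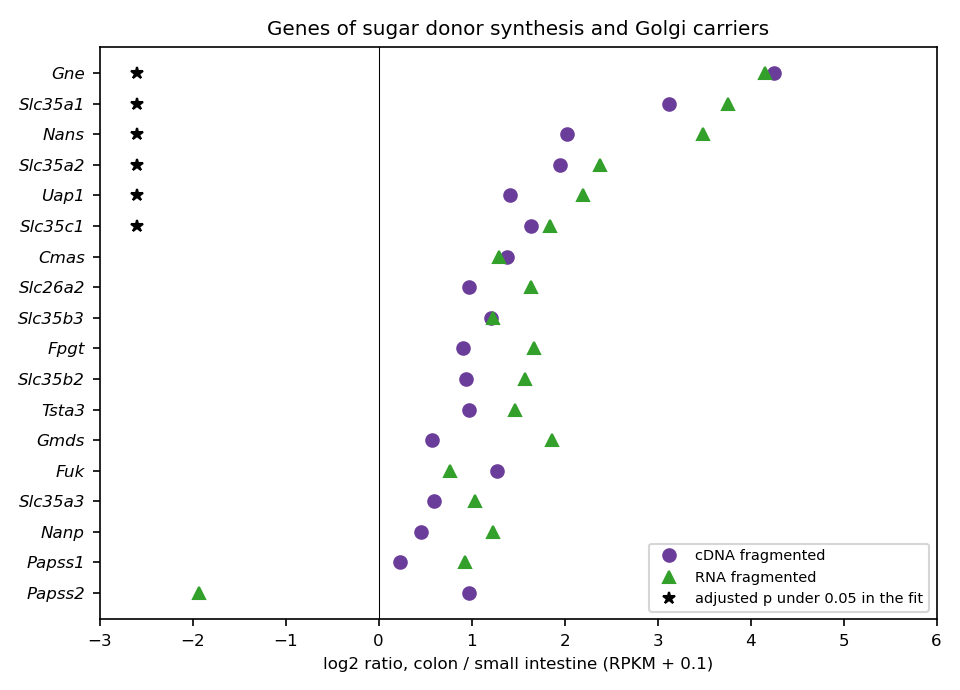
Log2 ratio, colon over small intestine, with 0.1 RPKM added, for 18 genes of sugar donor synthesis and Golgi carriers, circles for cDNA fragmented and triangles for RNA fragmented libraries, ordered by the difference in the fit. Stars mark the 6 genes with an adjusted p under 0.05, and Papss2 is the gene with points on both sides of 0.

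Of 17 related genes outside the symbol rule (other transferases and the chaperone of core 1 synthesis), 16 were tested, with 3 called higher in colon and 3 in small intestine, beside 6.69% and 6.46% of all genes tested. A4gnt, which caps gastric-type mucin chains, had 1.10 and 15.6 RPKM and 0.897 and 50.9, and Gal3st2, a galactose sulfotransferase, had 66.8 and 12.5 and 76.3 and 20.4. C1galt1, the core 1 synthase, and its chaperone C1galt1c1 were not called (7.48 and 10.5 RPKM, 15.8 and 48.1 for the first, and 82.2 and 96.1, 30.5 and 99.9 for the second). Of 4 mucin acceptors tested, the membrane mucins Muc1 and Muc4 were called higher in colon, beside 6.69% of all genes tested. Their levels were low, up to 2.81 and 14.2 RPKM. By cDNA and RNA fragmentation Muc1 had 7 and 1 reads in small intestine and 156 and 10 in colon. The counting interval of its ratio by RNA fragmentation held 1 (0.832 to 254). Muc1 passed the low-count filter of the fit through the colon libraries alone, so a call toward small intestine was not possible. Muc20 (up to 2.22 RPKM) and Muc13, the most abundant (706 and 451 RPKM, 643 and 718), were not called. Muc2 and Muc3 were not analysed here.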

How the data were processed

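The authors deposited, for each of 4 libraries, the position, strand and color mismatches of every SOLiD read placed once among RefSeq exons and exon junctions of mm9 (35 colors, up to 3 mismatches), with a report of read numbers and tables of exon positions. These units are positions and numbers of reads, with no normalized values. A read that also matched elsewhere in the genome would still have counted as unique.

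Here a read was given to the exon block that held its start, within 3 bases. Blocks were assigned to GENCODE M1 genes, and junction placements were not counted. Read totals and start points equalled those in the authors' reports. RPKM used all uniquely placed reads. Presence required over 0.01 RPKM and 2 or more start points. Ratios have exact conditional binomial intervals and levels exact Poisson intervals, at 95%, which cover counting error only. The fit used limma 3.58.1 (R 4.3.3) with voom weights, TMM scaling (trim 30% and 5%) and a low-count filter (10 reads in the median library in 2 libraries, 15 in all), over read counts made here. A quasi-likelihood count test had been planned and was replaced by this fit. The fit and the ratios were tested on simulated data. Python 3.11.15 did the rest.

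Full values are given for members that pass the 3-fold rule in either protocol, are called by the fit, or lead their family by mean RPKM, and for the genes named beside them, which were chosen after their values were seen. Members and lists were chosen with earlier results of these data known. The labels give ribosomal RNA depletion for the RNA fragmented libraries, whereas the methods describe polyadenylated RNA for that protocol, and the deposited read totals of the RNA fragmented libraries differ from those of the study, so these may not be the libraries it describes. 1 gene of the sugar supply list is not reported here.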

Additional observations from a re-analysis of the deposited data

Results flagged for a closer look

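In 4 of 79 enzyme genes the counting intervals of the tissue ratio lay on opposite sides of 1 under the 2 protocols, and the difference between protocols was not tested. The log2 ratio of B4galt1 (colon over small intestine) was 0.33 by cDNA fragmentation and -0.24 by RNA fragmentation. For St8sia4 these were -1.87 and 1.15. St8sia6 had -1.002 and 3.87, with 0 reads in the RNA fragmented small intestine library. Chst3 had 1.34 and -1.84. The same was seen in 1374 of all 20806 genes, of which 14827 were present in both protocols. It is therefore not particular to the enzyme genes.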

How the results depend on the processing

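With a penalty of 0.1 RPKM the 3-fold rule called 18 members higher in colon and 4 in small intestine by cDNA fragmentation, and 30 and 4 by RNA fragmentation. Of all genes present, this penalty called 8.3% and 4.22% by cDNA fragmentation and 16.3% and 6.96% by RNA fragmentation. With start points counted, 1 member met the rule in small intestine by cDNA fragmentation (1.3%, against 2.43% of all genes). With them the fit called 6 higher in small intestine (9.09%, against 8.02% of all genes). The median log2 ratio of the members was 0.33 by cDNA and 0.96 by RNA fragmentation with 1 RPKM added, and 0.46 by cDNA fragmentation with scaling by the median of ratios. In the fit, the number called higher in colon ranged from 17 without the low-count filter to 25 without scaling factors, beside 20, and the share of all genes from 3.26% to 10.6%, beside 6.69%. Of the named genes, Chst1 lost its call with at most 1 color mismatch, without the filter and with limma trend weights, B3gnt2 and St6gal1 lost theirs without the filter, and Galnt5 and Galnt7 gained one without scaling factors. With at most 1 color mismatch 18 members were called higher in colon. Another gene called in the main fit had too few reads left there to be tested. The same held for B3gnt2 without the shared exon bases. No named gene changed direction in the fit. The trend weights and the exclusion of shared exon bases in the fit were chosen after seeing the data. The planned fit with a second count tool was not run. No paired analysis was possible because the labels give no replicate numbers and tie no small intestine library to a colon library of the same mice, beyond the fit itself, which compares the tissues within each protocol. Each tissue and protocol has 1 library, so leaving out a library could not be tried within a protocol, and ratios from few reads in the RNA fragmented libraries are limited by depth.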
